A study of Mus musculus with 6 samples.

Results

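Hedgehog ligands and the genes that acylate and release them were described in tailbuds of mouse embryos at embryonic day 9.5. The list named 9 genes by symbol, the ligand genes Shh, Ihh and Dhh, the acyltransferase gene Hhat, and the release genes Disp1, Disp2, Scube1, Scube2 and Scube3. Of these, 8 have a row among the 37310 gene identifiers of the count tables and all 8 passed the filter on low counts; Disp1 was not analysed here. Polyadenylated RNA was sequenced from 3 libraries of embryos homozygous for Danforth's short tail (Sd/Sd) and 3 libraries of wild-type (WT/WT, below WT) embryos, all on an outbred CD-1 background. The tissue was cut just ahead of the last somite, and material of 2 embryos was combined in a library where it was scarce, in which libraries is not stated. Sd/Sd embryos carry the Sd insertion near the transcription factor gene Ptf1a on both chromosomes from conception, in every cell, so the libraries mix all tailbud tissues of a germline mutant that came from a stock kept as heterozygotes.

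Hedgehog ligands are secreted signals made by midline and epithelial tissues. The precursor cuts itself, gains cholesterol at the new end, and is palmitoylated by Hhat on a cysteine that becomes its first residue. The doubly lipidated ligand leaves the producing cell through the transporter-like Dispatched proteins with the help of secreted Scube proteins, and then relieves the inhibition of Smo by the receptor Ptch1. In the posterior embryo Sonic hedgehog (Shh) is known from notochord, floor plate and hindgut endoderm, Indian hedgehog (Ihh) from gut and visceral endoderm, and Desert hedgehog (Dhh) from endothelium, Schwann cells and gonads. Dispatched acts in the secreting cell, whereas Scube proteins are themselves secreted and can come from neighbouring cells.

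The 3 ligand genes encode related proteins, and the coding stretches that start at the acylated cysteine show how far their transcripts differ. These stretches are 60 bases of GENCODE M21 transcripts (GRCm38, coding strand, 5′ to 3′), on chromosomes 5, 1 and 15 for Shh, Ihh and Dhh, with the cysteine codon in capitals.
Shh: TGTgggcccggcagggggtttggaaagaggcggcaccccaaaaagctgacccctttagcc
Ihh: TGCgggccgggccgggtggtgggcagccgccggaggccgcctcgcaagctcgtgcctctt
Dhh: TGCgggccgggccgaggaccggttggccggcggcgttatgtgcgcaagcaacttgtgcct
Over aligned coding bases Ihh and Shh were 70.7% identical, Dhh and Shh 72.2%, and Dhh and Ihh 66.0%. The longest run that any 2 of the ligand transcripts compared here share exactly was 17 bases, and among the Scube1, Scube2 and Scube3 transcripts it was 21 bases, in Scube2 and Scube3. Exons of Dhh overlap those of Rhebl1 on the same strand over 546 bases in this annotation, so some Dhh reads may belong to Rhebl1, and Shh, Dhh and Scube3 also have antisense neighbours whose reads cannot be told apart without a stated strand setting.

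The libraries held 41788978 to 62296689 counts. Ptf1a, checked first because Sd lies beside it, had 848, 864 and 959 counts in Sd/Sd replicates 1, 2 and 3 and 5, 2 and 1 in WT replicates 1, 2 and 3. Levels are given as CPM, a gene's count scaled to a common library size with TMM factors. Markers of presomitic and tailbud mesoderm were present, with 9 tested genes of that list and a summed level of 378 to 755 CPM in Sd/Sd and 522 to 683 CPM in WT. Sd/Sd replicate 3 stood apart in somite genes: the summed level of 10 somite genes was 42.6 CPM there, 399 and 490 CPM in Sd/Sd replicates 1 and 2, and 225 to 328 CPM in WT. Nothing in the labels ties the libraries to separate litters; the p-values therefore cover only the spread between these 6 libraries, which may be partly technical.

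Shh and Ihh fell in Sd/Sd tailbuds, and no other gene of the set passed the test. Shh, known from notochord, floor plate and hindgut endoderm, was 2.82-fold lower. Ihh, known from gut and visceral endoderm, was 3.80-fold lower. In bulk tailbuds fewer cells of a type and less RNA per cell cannot be told apart. Across all 15471 genes tested, 0.0582% passed at an adjusted p under 0.05 in either direction, 0.0388% as higher and 0.0194% as lower in Sd/Sd (edgeR quasi-likelihood test, Benjamini-Hochberg); of the 8 ligand and release genes, 2 passed, both lower. The 8 genes had a median log2 fold change of -0.09, against -0.000337 over all genes tested, with 4 negative and 4 positive values.

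**Figure D1:**
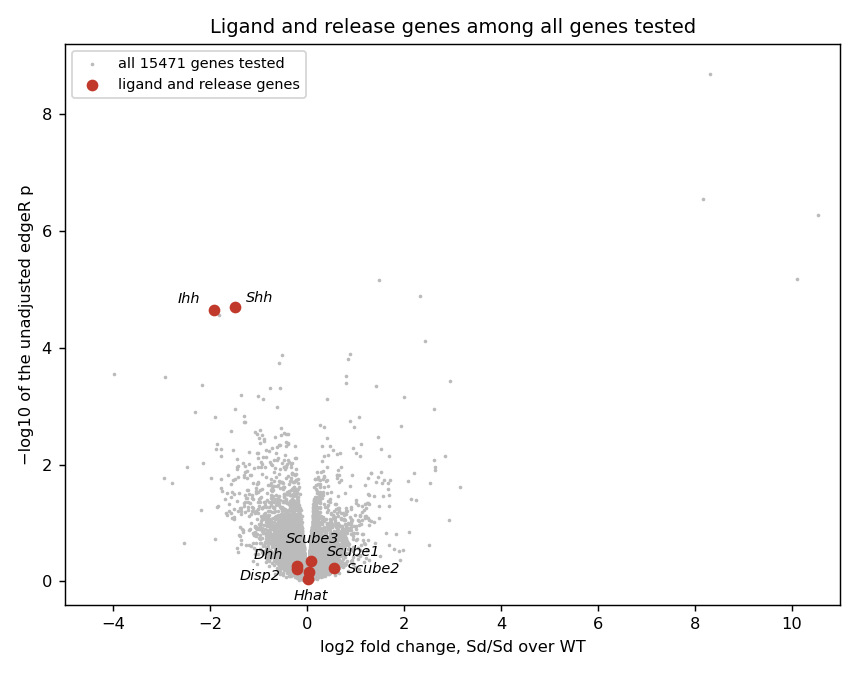
Unadjusted edgeR p on a −log10 axis against the log2 fold change of Sd/Sd over WT for the 15471 genes tested (grey) and the 8 ligand and release genes (red). Shh and Ihh lie together at the upper left, and the other 6 lie at the foot of the plot.

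Shh (ENSMUSG00000002633.3, chromosome 5) measured 6.74, 5.09 and 4.30 CPM in Sd/Sd replicates 1, 2 and 3 and 15.5, 13.4 and 16.5 CPM in WT replicates 1, 2 and 3. Every Sd/Sd library lay below every WT library, and the range within each group was smaller than the gap between them. The group means were 5.38 ± 1.25 CPM in Sd/Sd and 15.1 ± 1.55 CPM in WT (SD, n = 3 each), a log2 difference of -1.49 (SE 0.18, 95% interval -1.91 to -1.08, edgeR adjusted p = 0.0438).

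Ihh (ENSMUSG00000006538.8, chromosome 1) rested on fewer counts than Shh. It measured 0.776, 0.751 and 0.836 CPM in Sd/Sd replicates 1, 2 and 3, from 32, 47 and 41 counts, and 3.11, 2.59 and 3.29 CPM in WT replicates 1, 2 and 3, from 164, 137 and 139 counts. Groups did not overlap, and the coefficient of variation was 5.58% in Sd/Sd and 12.1% in WT. At 32 to 47 counts the counting error alone exceeds 5.58%, so the Sd/Sd value does not show that Ihh varies little. Means were 0.788 ± 0.0440 CPM in Sd/Sd and 3.00 ± 0.363 CPM in WT (SD, n = 3 each), a log2 difference of -1.93 (SE 0.24, 95% interval -2.47 to -1.38, edgeR adjusted p = 0.0438). Groups did not overlap in 7.68% of all genes tested, 4.42% with Sd/Sd lower and 3.26% with Sd/Sd higher; among the 8 genes they did not overlap in 2, Shh and Ihh, both lower.

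The calls of Shh and Ihh sit at the threshold. By unadjusted p they ranked 7 and 8 of 15471 genes. Without Sd/Sd replicates 1, 2 and 3 in turn Shh had edgeR adjusted p = 0.0781, 0.157 and 0.0615, while leaving out WT replicates 1, 2 and 3 gave it 0.263, 0.214 and 0.248. The same 6 fits gave Ihh 0.267, 0.157 and 0.0933 for the Sd/Sd libraries and 0.317, 0.214 and 0.275 for the WT libraries. Their fold changes moved little in those fits, between -1.68 and -1.36 on the log2 scale for Shh and between -2.02 and -1.85 for Ihh. DESeq2, which called 0.222% of the genes it tested, put Shh at an adjusted p of 2.43e-12 and Ihh at 3.99e-07, and limma-voom put them at 0.0860 and 0.104.

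**Figure D2:**
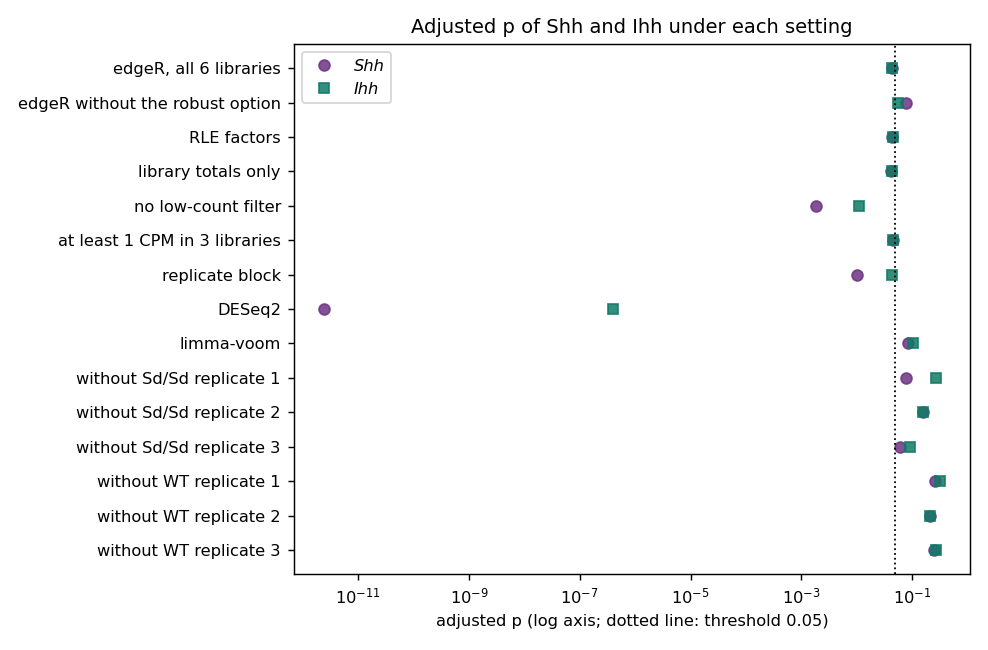
Adjusted p of Shh (circles) and Ihh (squares) on a log axis for edgeR on all 6 libraries and for each of 14 other settings, with the threshold of 0.05 as a dotted line. Leaving out any 1 library puts both genes right of the line, and DESeq2 puts them far left of it.

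**Figure D3:**
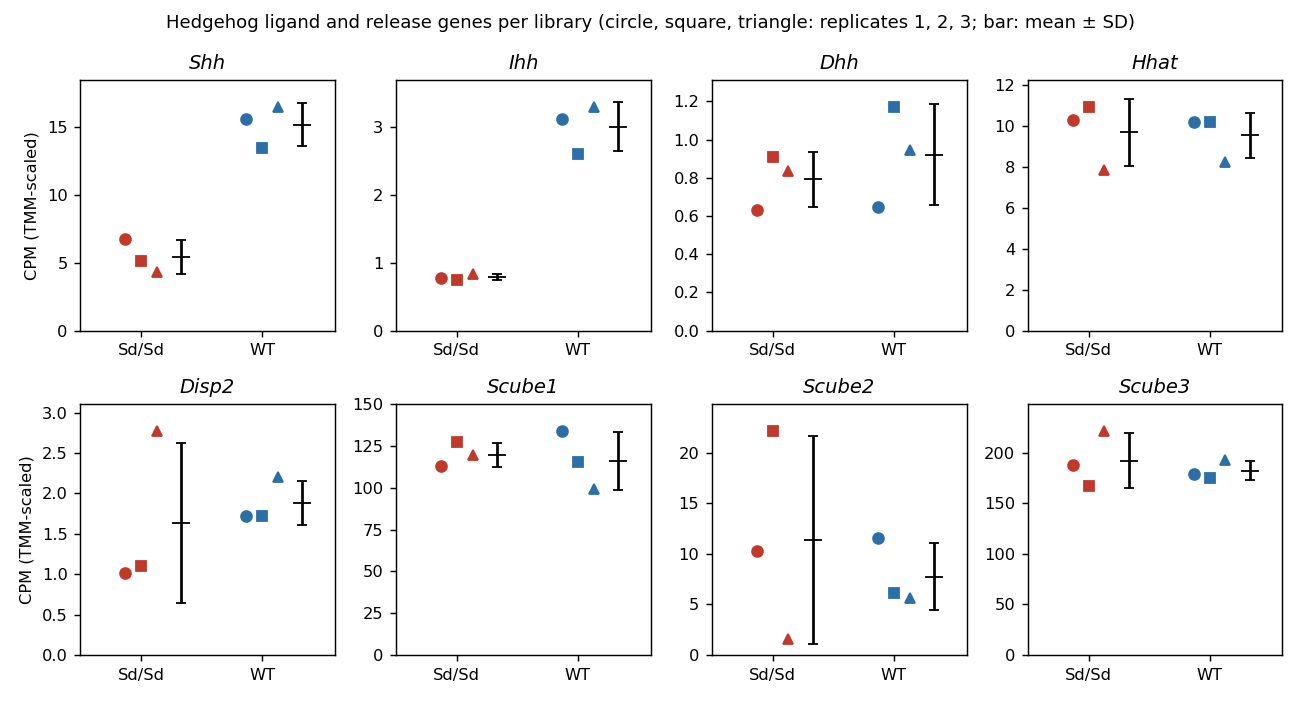
Levels of the 8 ligand and release genes in CPM, each panel on its own axis from 0, with Sd/Sd (red) left of WT (blue); symbols are replicates 1, 2 and 3 (circle, square, triangle) and the black bar is the mean ± SD of 3 libraries. Shh and Ihh separate the groups, while Scube2 spans 1.61 to 22.1 CPM within Sd/Sd alone.

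Dhh, the third ligand gene, did not pass the test. Dhh (ENSMUSG00000023000.4, chromosome 15) measured 0.631, 0.910 and 0.836 CPM in Sd/Sd replicates 1, 2 and 3 and 0.645, 1.17 and 0.947 CPM in WT replicates 1, 2 and 3, from 26 to 57 counts in Sd/Sd and 34 to 62 counts in WT. The groups overlapped (log2 fold change -0.21, SE 0.34, 95% interval -0.99 to 0.57, edgeR adjusted p = 1.00). Per kilobase of transcript, the scale on which genes can be compared, Dhh was below Ihh in every library of both groups. In Sd/Sd this order rests on the lengths used, 4.242 kb for Dhh and 2.468 kb for Ihh. Counts in Sd/Sd replicates 1, 2 and 3 were 26, 57 and 41 for Dhh and 32, 47 and 41 for Ihh, without a clear order.

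Summed over the 3 ligand genes, Sd/Sd libraries held 8.15, 6.76 and 5.98 CPM and WT libraries 19.3, 17.2 and 20.7 CPM, a 2.74-fold lower mean in Sd/Sd. Dhh made up 7.74% (26 of 336 counts; 95% Wilson interval 5.34 to 11.1%), 13.5% (10.5 to 17.1%) and 14.0% (10.5 to 18.4%) of ligand counts in Sd/Sd replicates 1, 2 and 3. In WT replicates 1, 2 and 3 its share was 3.34% (2.40 to 4.64%), 6.82% (5.36 to 8.65%) and 4.58% (3.38 to 6.17%). The shares did not overlap between groups although the Dhh levels did, since Shh and Ihh form the rest of the sum. The intervals of the nearest shares, in Sd/Sd replicate 1 and WT replicate 2, overlapped, so these 2 are not apart beyond counting error. The intervals cover counting error only. Shh remained the main ligand transcript in every library, at 72.0% to 82.7% of ligand counts in Sd/Sd and 78.1% to 80.5% in WT.

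Whether Ihh changed by another factor than Shh was asked within libraries. There were 8.69, 6.79 and 5.15 Shh counts per Ihh count in Sd/Sd replicates 1, 2 and 3 and 4.99, 5.18 and 5.00 in WT replicates 1, 2 and 3. WT libraries were nearly equal, Sd/Sd replicates 1 and 2 were above them, and Sd/Sd replicate 3 lay among them. The mean log2 ratio of Ihh to Shh was -2.75 ± 0.38 in Sd/Sd and -2.34 ± 0.03 in WT, a difference of -0.41 (2-sided exact permutation test, p = 0.2, n = 3 each). The smallest p this design allows is 0.1, so the test could not have passed 0.05 and does not show whether both genes changed by the same factor.

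**Figure D4:**
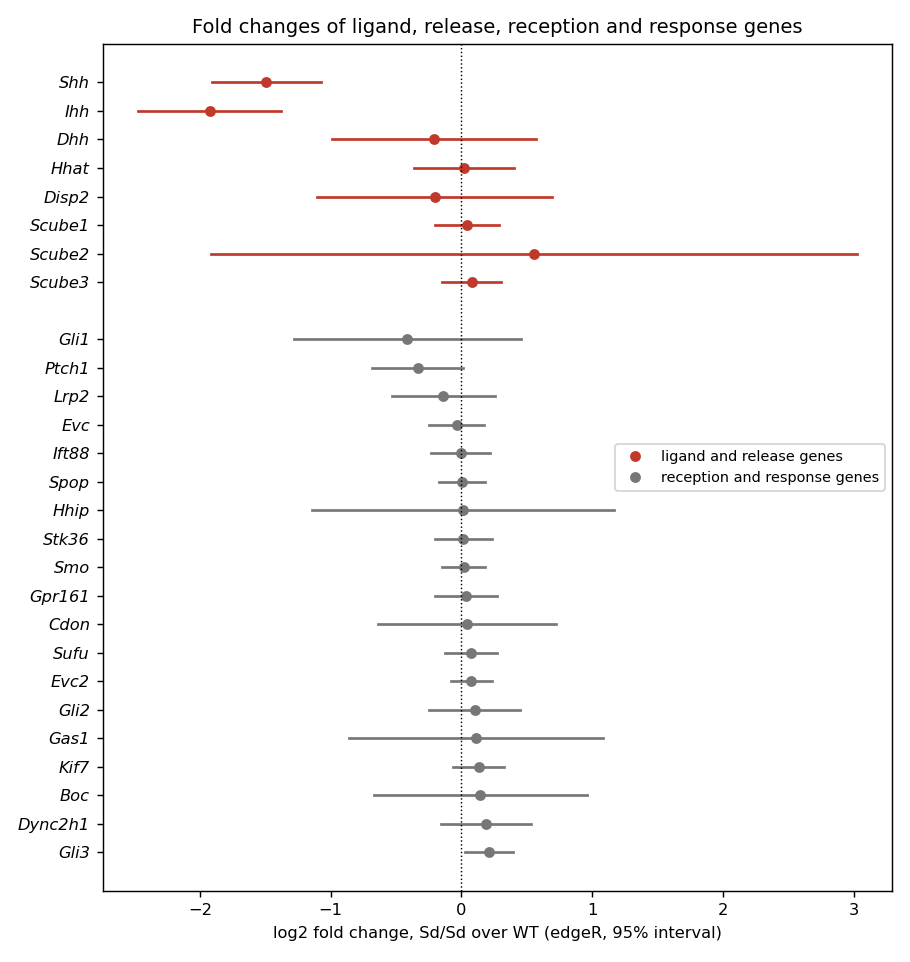
Log2 fold changes of Sd/Sd over WT with 95% intervals from edgeR for the 8 ligand and release genes (red, top) and 19 reception and response genes (grey). Shh and Ihh lie at -1.49 and -1.93, apart from the reception and response genes, whose values run between -0.41 and 0.21.

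Hhat, the acyltransferase that palmitoylates all hedgehog ligands, did not pass the test, and its interval leaves modest changes in either direction possible. Hhat (ENSMUSG00000037375.9, chromosome 1) measured 10.3, 10.9 and 7.81 CPM in Sd/Sd replicates 1, 2 and 3 and 10.2, 10.2 and 8.24 CPM in WT replicates 1, 2 and 3. Replicate 3 was the lowest of each group and the groups overlapped (log2 fold change 0.02, SE 0.17, 95% interval -0.36 to 0.40, edgeR adjusted p = 1.00).

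Disp2, a relative of the ligand exporter Disp1, was scarce. Disp2 (ENSMUSG00000040035.7, chromosome 2) measured 1.02, 1.10 and 2.77 CPM in Sd/Sd replicates 1, 2 and 3 and 1.73, 1.72 and 2.20 CPM in WT replicates 1, 2 and 3. Sd/Sd replicates 1 and 2 lay below all WT libraries and Sd/Sd replicate 3 above all of them. The log2 fold change was -0.21 (SE 0.40, 95% interval -1.10 to 0.69, edgeR adjusted p = 1.00) and was -0.82 without Sd/Sd replicate 3 (edgeR, not past the threshold).

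Scube3 and Scube1, secreted glycoproteins that carry lipidated ligand off the cell, had the most transcripts of the set per kilobase and did not pass the test. Scube3 (ENSMUSG00000038677.6, chromosome 17) measured 188, 168 and 222 CPM in Sd/Sd replicates 1, 2 and 3 and 179, 175 and 193 CPM in WT replicates 1, 2 and 3. Scube1 (ENSMUSG00000016763.8, chromosome 15) measured 113, 127 and 119 CPM in Sd/Sd replicates 1, 2 and 3 and 134, 116 and 99.3 CPM in WT replicates 1, 2 and 3. Groups overlapped for both genes. The 95% intervals of their log2 fold changes, -0.15 to 0.31 for Scube3 and -0.20 to 0.29 for Scube1, lie wholly outside those of Shh and Ihh (edgeR adjusted p = 1.00 for both).

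Scube2, the family member known in zebrafish for long-range hedgehog signalling, varied most. Scube2 (ENSMUSG00000007279.7, chromosome 7) measured 10.3, 22.1 and 1.61 CPM in Sd/Sd replicates 1, 2 and 3 and 11.5, 6.09 and 5.61 CPM in WT replicates 1, 2 and 3. Sd/Sd held both the highest and the lowest library, a 13.7-fold range, against a 2.05-fold range in WT. The range within Sd/Sd was wider than in 99.6% of the 12835 genes with a mean of at least 1 CPM, whose median was 1.21-fold. The log2 fold change of 0.55 had a 95% interval of -1.92 to 3.02 (SE 0.94, edgeR adjusted p = 1.00). It turned to -0.39 without Sd/Sd replicate 2 and reached 1.07 without Sd/Sd replicate 3, so these libraries give no direction for Scube2.

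The 4 named genes whose pattern over the 6 libraries was most like that of Scube2 are all known from neural tissue. They were looked up after its values were seen, by the mean absolute difference between centred log2 CPM (prior count 2). Pax6, a homeobox factor of neural progenitors, was nearest at 0.10 and measured 16.2, 29.6 and 2.81 CPM in Sd/Sd replicates 1, 2 and 3 and 19.8, 10.2 and 9.64 CPM in WT replicates 1, 2 and 3. Next came Nr2f1, an orphan nuclear receptor gene, at 0.20, Rfx4, a factor of neural tube patterning, at 0.20, and Pax3, a paired-box gene of dorsal neural tube and dermomyotome, at 0.25. All 4 were lowest in Sd/Sd replicate 3 and highest in Sd/Sd replicate 2, as Scube2 was, which follows from how they were picked. The summed somite level was ordered at its ends in the same way, and the part of tissue content in the Scube2 values was not tested.

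**Figure D5:**
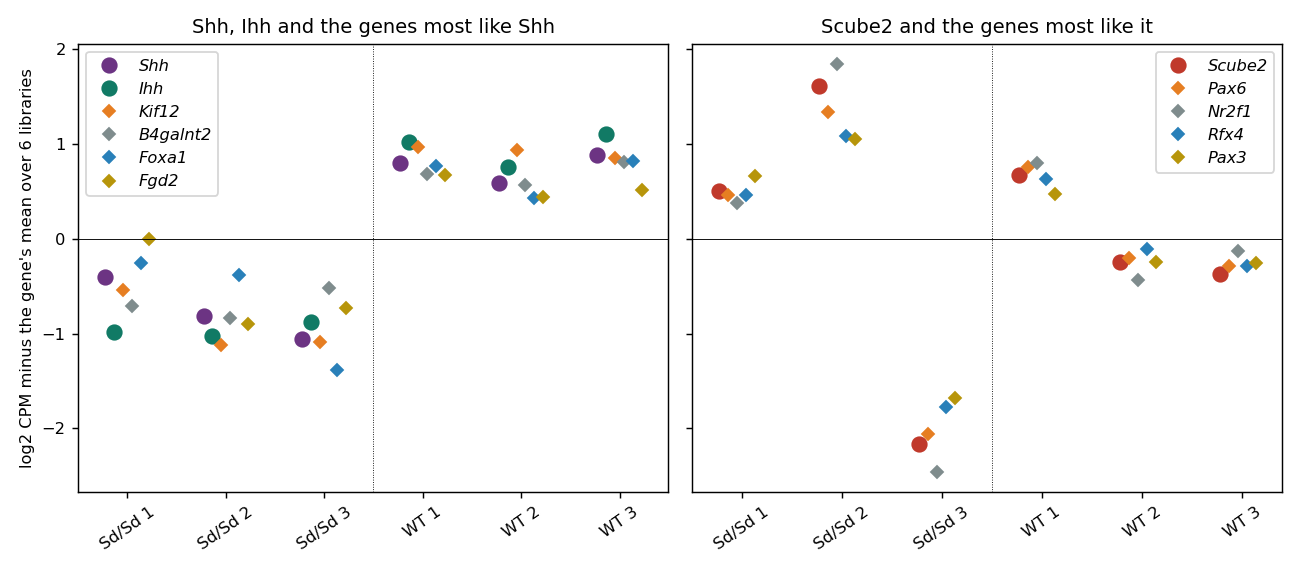
Log2 CPM of each gene minus its mean over the 6 libraries, with Sd/Sd libraries left of WT libraries; the left panel has Shh, Ihh and the genes most like Shh, the right panel Scube2 and the genes most like it. The genes set beside Shh and Scube2 were picked for closeness to these patterns. On the left, genes are above 0 in all WT libraries. On the right, Sd/Sd replicate 3 is lowest and Sd/Sd replicate 2 highest.

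Levels of different genes were compared per kilobase of the longest coding transcript in GENCODE M21. In WT the order of mean CPM per kb was Scube3 at 26.5, Scube1 at 22.5, Shh at 5.32, Hhat at 3.35, Scube2 at 2.169, Ihh at 1.21, Disp2 at 0.284 and Dhh at 0.217. In Sd/Sd it was Scube3 at 28.0, Scube1 at 23.2, Hhat at 3.40, Scube2 at 3.18, Shh at 1.89, Ihh at 0.319, Disp2 at 0.246 and Dhh at 0.187. Shh thus stood above Hhat in every WT library, at 4.72 to 5.78 against 2.90 to 3.58 CPM per kb, and below it in every Sd/Sd library, at 1.51 to 2.37 against 2.75 to 3.85 CPM per kb. Neighbours whose library ranges overlapped, and which therefore have no clear order, were Scube3 and Scube1, Hhat and Scube2, and Disp2 and Dhh in both groups, and also Scube2 and Shh, and Ihh and Disp2, in Sd/Sd. With the merged length of all annotated exons, which for Hhat is 9.150 kb in place of 2.839 kb and was added after the values were seen, Hhat fell below Scube2 in WT and below both Scube2 and Shh in Sd/Sd, and Dhh and Disp2 exchanged places in both groups.

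Kif12, a kinesin motor gene, followed Shh and Ihh most closely. Among 12834 genes with a mean of at least 1 CPM, Kif12 was nearest to Shh (mean absolute difference of centred log2 CPM 0.17) and nearest to Ihh (0.20). It measured 1.70, 1.13 and 1.16 CPM in Sd/Sd replicates 1, 2 and 3 and 4.84, 4.75 and 4.45 CPM in WT replicates 1, 2 and 3 (log2 fold change -1.82 with SE 0.23, adjusted p = 0.0481 in edgeR). Its call was lost without Sd/Sd replicates 1, 2 and 3 in turn (edgeR adjusted p = 0.103, 0.157 and 0.103) and without WT replicates 1, 2 and 3 in turn (0.322, 0.372 and 0.248). Ihh was the fifth nearest to Shh and Shh the second nearest to Ihh, at 0.25.

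The other genes near Shh were B4galnt2, a glycosyltransferase gene (0.18), Foxa1, a forkhead factor of endoderm and midline (0.19), and Fgd2, a guanine nucleotide exchange factor gene (0.24). Those near Ihh were B4galnt2 (0.27), Chrnb1, a muscle acetylcholine receptor subunit gene (0.29), and Klk13, a kallikrein protease gene (0.32). None of these 5 genes passed the test in edgeR. Their edgeR adjusted p was 0.413 for B4galnt2, 0.755 for Foxa1, 0.920 for Fgd2, 0.672 for Chrnb1 and 0.755 for Klk13. Their groups did not overlap, against 7.68% of all genes tested, and DESeq2 called Foxa1, Fgd2 and Chrnb1. The genes were picked for closeness to Shh or Ihh in these libraries, so the non-overlap and these calls carry no further weight.

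Hindgut, notochord and floor plate are the tissues known to make these ligands. Of their markers only Kif12, which was listed with its result already known, passed the test in edgeR. For the counts of list genes at an unadjusted p under 0.05 in edgeR, the share over all 15471 genes tested was 2.9%. Of 20 tested hindgut endoderm genes 19 had a negative log2 fold change and 1, Kif12, passed (median -0.38; 50.1% of all genes tested were negative). At an unadjusted p under 0.05 there were 10 of the 20, and 9 of the 20 were lower in Sd/Sd without overlap, against 4.42% of all genes tested. Their summed level overlapped, at 773 to 1050 CPM in Sd/Sd and 847 to 1079 CPM in WT, and among the 21 listed none was at 0 in all libraries. Krt8, Krt18 and Cdx2, at WT means of 249, 154 and 133 CPM, weighed most in that sum. It therefore says little of scarcer genes such as Foxa1 and Foxa2, at WT means of 13.5 and 8.06 CPM. Kif12 was put on this list with its result already known and is in each of these counts, so its pass carries no weight for the tissue. Apart from Kif12 no gene of the list passed in edgeR. Of the other hindgut genes the rule names, Cldn6, a tight-junction gene, had a log2 difference of -0.52 (SE 0.08, edgeR adjusted p = 0.173), and Epcam, an epithelial adhesion gene, had -0.55 (SE 0.10, edgeR adjusted p = 0.333). DESeq2 called 5 of the 20, Kif12, Cldn6, Epcam, Foxa1 and Foxa2, and limma-voom called 0.

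Notochord genes other than the ligands had 10 of 14 negative values and 0 past the threshold in edgeR, with 6 at an unadjusted p under 0.05, 2 called by DESeq2, Foxa1 and Foxa2, and 0 by limma-voom (median -0.41). Their summed level was 365 to 379 CPM in Sd/Sd and 403 to 432 CPM in WT. T and Col2a1, at WT means of 160 and 155 CPM, weighed most in that sum. Of the 14 genes, 6 were lower in Sd/Sd without overlap, against 4.42% of all genes tested. The lowest log2 fold change of the list was that of Noto, at -2.79 (SE 0.86), which did not pass in edgeR. Noto measured 2.23, 0.144 and 1.71 CPM in Sd/Sd replicates 1, 2 and 3. In WT replicates 1, 2 and 3 it measured 8.04, 8.53 and 11.1 CPM. Foxa2, the forkhead factor that these midline and gut tissues share, stood at 5.87, 3.31 and 3.59 CPM in Sd/Sd replicates 1, 2 and 3 and 8.51, 7.70 and 7.96 CPM in WT replicates 1, 2 and 3 (log2 fold change -0.92, SE 0.23, edgeR adjusted p = 0.930). Emilin3, a matrix glycoprotein gene of notochord, had a log2 difference of -0.47 (SE 0.15, edgeR adjusted p = 1.00). Floor plate genes had 8 of 11 negative values and 0 past in edgeR, with 3 at an unadjusted p under 0.05 and the same 3, Foxa1, Foxa2 and Nkx2-9, called by DESeq2, and 0 by limma-voom. Their summed levels overlapped, at 192 to 379 CPM in Sd/Sd and 305 to 370 CPM in WT. Sulf1 and Ntn1, at WT means of 146 and 113 CPM, weighed most in these sums. Nkx2-9, which encodes a ventral neural homeodomain factor, had a log2 difference of -1.86 (SE 0.47, edgeR adjusted p = 1.00). Foxa1 and Foxa2 are on all 3 of these lists, so they are in the counts of each, the DESeq2 calls included. No gene of the notochord list apart from them was called. The lists were chosen with earlier results of these data known, so their counts beside the shares over all genes are a description only.

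Within a library, the ligands can be set against single markers, here Epcam, Foxa1 and Foxa2. Per 100 Epcam counts there were 23.1, 19.2 and 12.7 Shh counts in Sd/Sd replicates 1, 2 and 3 and 38.5, 29.8 and 36.0 in WT replicates 1, 2 and 3. Per 100 Epcam counts there were 2.66, 2.83 and 2.47 Ihh counts in Sd/Sd replicates 1, 2 and 3 and 7.70, 5.75 and 7.19 in WT replicates 1, 2 and 3. Neither of these ratios overlapped between groups. Per 100 Foxa1 counts, in contrast, Shh had 96.5, 79.2 and 134 counts in Sd/Sd replicates 1, 2 and 3 and 109, 119 and 111 in WT replicates 1, 2 and 3, which overlapped. Ihh per 100 Foxa1 counts was 11.1, 11.7 and 26.1 in Sd/Sd replicates 1, 2 and 3 and 21.9, 22.9 and 22.2 in WT replicates 1, 2 and 3, low in Sd/Sd replicates 1 and 2 and above WT in Sd/Sd replicate 3, where Foxa1 itself was lowest. Foxa1 measured 6.99, 6.44 and 3.20 CPM in Sd/Sd replicates 1, 2 and 3 and 14.2, 11.3 and 14.8 CPM in WT replicates 1, 2 and 3. Per 100 Foxa2 counts there were 114.9, 154 and 119.9 Shh counts in Sd/Sd replicates 1, 2 and 3 and 182, 174 and 207 in WT replicates 1, 2 and 3, without overlap. Ihh per 100 Foxa2 counts was 13.2, 22.7 and 23.3 in Sd/Sd replicates 1, 2 and 3 and 36.5, 33.7 and 41.4 in WT replicates 1, 2 and 3, also without overlap. These ratios are a description and were chosen after the values were seen. Epcam, Foxa1 and Foxa2 had log2 fold changes of -0.55, -1.28 and -0.92, against -1.49 for Shh and -1.93 for Ihh. Kif12 and Noto, at -1.82 and -2.79, were not used, so the ratios depend on the markers chosen. The part of tissue content in the change of Shh and Ihh was not tested.

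Visceral endoderm is another known source of Ihh, and its markers were scarce in these tailbuds. Of 7 tested yolk sac endoderm genes 6 were negative and 0 passed in edgeR, with 4 at an unadjusted p under 0.05 and 0 called by DESeq2 or limma-voom (median -0.73), and their summed level was 7.31 to 9.95 CPM in Sd/Sd and 11.3 to 12.2 CPM in WT. The 3 with the smallest p were Apob (-1.02, SE 0.36) and Apoa1 (-1.28, SE 0.51), apolipoprotein genes, and Amn, an endocytic receptor gene, with the opposite sign (1.01, SE 0.42), all log2 fold changes with edgeR adjusted p = 1.00. For Dhh, endothelium is the known source in the trunk: all 12 endothelial genes were negative and 0 passed in edgeR, with 1 at an unadjusted p under 0.05, Sox18 (log2 fold change -0.26, SE 0.10), and 0 by DESeq2 or limma-voom (median -0.18, sums 544 to 767 CPM in Sd/Sd and 653 to 725 CPM in WT). Emcn and Pecam1, endothelial surface proteins, differed on the log2 scale by -0.30 (SE 0.15) and -0.29 (SE 0.14). Of neural crest and glial genes 3 of 5 tested were negative, of primitive blood genes 6 of 6, of presomitic and tailbud mesoderm genes 4 of 9 and of somite genes 2 of 10, with 0 past or at an unadjusted p under 0.05 and 0 by DESeq2 or limma-voom; each of these sums overlapped between groups. The part of these tissues in the ligand levels was not tested.

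Genes of a further list, on ligand maturation and matrix, did not pass. The list held proprotein convertases, cell-surface proteases, cholesterol enzymes, glypicans, syndecans and heparan sulfate enzymes. It also held Notum, Hspg2, and Disp3 and Hhatl, relatives of the Dispatched genes and Hhat. Of its 31 genes 27 were tested, 12 negative and 15 positive (median 0.01). There were 0 past in edgeR, 1 at an unadjusted p under 0.05 and 0 by DESeq2 or limma-voom. Furin, a convertase that cleaves Dispatched, measured 84.6, 81.5 and 78.6 CPM in Sd/Sd replicates 1, 2 and 3 and 93.1, 102 and 96.0 CPM in WT replicates 1, 2 and 3, without overlap (log2 fold change -0.25, SE 0.07, edgeR adjusted p = 1.00). Sdc4, a syndecan, and Hs6st1, a heparan sulfate sulfotransferase gene, differed on the log2 scale by -0.27 (SE 0.12) and -0.25 (SE 0.13). Groups did not overlap for 2 of the 27 tested genes, Furin and Sdc4, both lower in Sd/Sd. Over all genes tested the share was 7.68%, with 4.42% lower, so no weight is put on these 2. Gpc3 and Gpc4 lie on chromosome X, whose 2269 identifiers are listed at 0 in every library, and Hhatl and Gpc5 were below the filter.

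Reception and response genes, which see the ligand, had 14 positive and 5 negative values among 19 tested (median 0.03), with 0 past in edgeR, 1 at an unadjusted p under 0.05 and 0 by DESeq2 or limma-voom. Gli3, the main repressor of the pathway, measured 148, 132 and 146 CPM in Sd/Sd replicates 1, 2 and 3 and 116.2, 117.4 and 134.6 CPM in WT replicates 1, 2 and 3 (log2 fold change 0.21, SE 0.08). Kif7, a ciliary kinesin that regulates Gli proteins, differed by 0.13 (SE 0.09) and the receptor gene Ptch1 by -0.34 (SE 0.15) on the log2 scale, and the groups overlapped for all 3 genes (edgeR adjusted p = 1.00 for each). Ptch1 stood at 253, 175 and 170 CPM in Sd/Sd replicates 1, 2 and 3 and at 256, 250 and 248 CPM in WT replicates 1, 2 and 3. Sd/Sd replicate 1 lay within the WT range of Ptch1, and Sd/Sd replicates 2 and 3 lay below it. The lowest log2 fold change of the list was that of Gli1, at -0.41 (SE 0.34), with overlapping groups. Gli1 measured 82.4, 80.9 and 38.9 CPM in Sd/Sd replicates 1, 2 and 3. In WT replicates 1, 2 and 3 it measured 112.6, 79.8 and 77.1 CPM.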

How the data were processed

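The authors deposited raw counts per Ensembl gene, 1 table per library, without a header. Per the submitters' processing notes the build was mm9 and the tools named are STAR 2.5.2b, SAMtools, DESeq2, CASAVA and bcl2fastq 2.17.1.14, with no role given. The mRNA kit marks strand, per the labels' protocols. Symbols, chromosomes and lengths came from GENCODE M21 (GRCm38), which named 32620 of 37310 identifiers; no coordinates are given because the builds differ. Identifiers without a symbol held 0.622% of counts. The counting program, strand option and gene models were not given in the sources used here.

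Filtering with filterByExpr, at a minimum count of 10 and a minimum total of 15, left 15471 genes with 99.967% of counts. Sd/Sd was compared with WT by edgeR 4.0.16 in R 4.3.3 (TMM, robust glmQLFit, glmQLFTest, 2-sided), adjusted over all genes by Benjamini-Hochberg, with a threshold of 0.05; the scripts were tested on simulated data. SE is the log2 fold change divided by the square root of F. Alternatives were DESeq2 1.42.0, limma-voom (limma 3.58.1), other normalizations and filters, a replicate block and leaving out each library.

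The members and lists were chosen with earlier results of these data known. Named were all members, Ptf1a, the up to 3 genes of each list with the smallest p, and the 5 nearest to Shh and to Ihh; neural crest, blood, presomitic and somite lists are given as counts and sums. A gene of the reception list is not reported here and was left out of its counts. Noto, Gli1, the genes set beside Scube2, the ratios to markers and the merged exon length were added after the values were seen. Noto and Gli1 were not followed over the other settings.

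Deviations from the group means correlated between same-numbered libraries, at 0.194, 0.144 and 0.275 for numbers 1, 2 and 3, all above 0.1; WT replicate 1 and Sd/Sd replicate 2 also correlated, at 0.182. The labels do not say that the numbers pair the libraries, and these correlations do not settle it. No 2 libraries of a group agreed within sampling noise.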

Additional observations from a re-analysis of the deposited data

How the results depend on the processing

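Of 500 refitted values for 36 named genes over 14 settings, 447 kept direction and side of the threshold, 25 lost the call, 8 gained it and 20 turned sign. Shh and Ihh kept their direction in all 14 settings and their call in 6 of them, including the replicate block (log2 fold change -1.51, adjusted p = 0.0103 for Shh, and -1.92, 0.0441 for Ihh); without the robust option edgeR gave adjusted p = 0.0785 and 0.0566. The block changed no call among the 8 ligand and release genes. Genes higher in Sd/Sd past the threshold numbered 6 in the edgeR fit, 8 with the replicate block, 3 without the robust option, 3 with limma-voom, 19 with DESeq2 and 2 to 5 with 1 library left out. Genes lower numbered 3, and 4 with the block, 5 with no low-count filter, 20 with DESeq2, 0 without the robust option in edgeR (303 at an unadjusted p under 0.05), 0 with limma-voom (346), and 0 to 1 with 1 library left out.

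With 1 library left out, log2 fold changes ran from -0.41 to 0.00387 for Dhh, -0.077 to 0.15 for Hhat, -0.82 to 0.042 for Disp2, -0.058 to 0.16 for Scube1, -0.39 to 1.07 for Scube2, -0.035 to 0.17 for Scube3, -0.48 to 0.79 for Pax6, -0.62 to 1.11 for Nr2f1, -0.40 to 0.67 for Rfx4 and -0.12 to 0.83 for Pax3. The replicate block gave -0.13 for Pax6, -0.10 for Nr2f1 and -0.11 for Rfx4, and limma-voom gave -0.12, -0.057 and -0.12; the cause was not tested. Low counts limit Ihh, Dhh and Disp2, which had 26 to 164 counts per library.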
